A study of Drosophila melanogaster with 3 samples.

Results

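A skipped internal cassette exon is an exon that some mRNAs of a gene carry between their first and last exons and that other mRNAs of the same gene leave out. Among the full-length isoforms of fly heads, 244 of 11777 distinct internal exons (2.07%, 95% Wilson interval 1.83 to 2.35) were of this kind, in 169 genes. Members were chosen by the isoform structures themselves: an internal exon of a multi-exon isoform with a FlyBase gene identifier counted when it lay wholly inside an intron of another isoform of that gene. How often exons were skipped is therefore the selection itself and is given without a test. A further 132 exons (1.14% of the 11533 that were not skipped) lay just outside the rule, since another isoform's intron overlapped only a part of them.

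The isoforms came from PacBio Iso-seq, long-read sequencing of whole cDNA molecules, on RNA from heads of the w1118 strain of Drosophila melanogaster, the white-eyed laboratory line. There were 3 libraries in 1 group, from flies 3 days old kept at 25 °C, and the study's methods state that males and females were taken in equal amounts. The deposited isoforms were pooled over the libraries and carry no read counts, so no spread between libraries, no level of an isoform and no rate of inclusion could be measured. Each isoform stands for at least 2 full-length reads, and the sources used here state no depth for single libraries. All intervals below cover only the number of exons or genes counted, and exons of the same gene are not independent of each other. The labelled tissue could not be checked by marker levels, although isoforms of trpl, a cation channel of photoreceptors, were among those with skipped exons.

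In splicing, the spliceosome joins the donor site at the start of an intron to the acceptor site at its end, and an exon is skipped when a donor is joined to the acceptor beyond the next exon. When a skipped exon is a multiple of 3 in length, the reading frame downstream stays the same, and otherwise it shifts, which often brings an early stop codon. Mutually exclusive exons are a special form in which each mRNA carries only 1 of a set of neighbouring exons. Alternative exons, very short microexons among them, are known to be common in nervous tissue and in muscle, and a fly head holds both.

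Several isoforms are needed to see an exon skipped. Of the 3795 genes with a multi-exon isoform, 595 had 2 or more, and 169 of these (28.4%, 24.9 to 32.2) held a skipped exon. All 169 genes matched the annotation and were protein-coding. The gene had 1 skipped exon in 123 cases, 2 in 27, 3 in 12, 4 in 6 and 7 in 1. That 1 gene was Atpalpha, the catalytic subunit of the sodium pump, and the genes with 4 were Tm1, shot, teq, Tep2, Vha100-1 and MESK2. Overlapping forms of an exon count separately. In MESK2 the exons of 428 and 401 nt overlap, as do those of 96 and 84 nt. In Vha100-1 the exons of 158 and 92 nt overlap. Most exons rested on few isoforms. For 135 exons (55.3%) a single isoform carried the exon and a single isoform skipped it, while 33 had more including than skipping isoforms and 64 had more skipping than including isoforms. The exons were spread over the chromosome arms much as their comparison set was, with 67 on 2R (27.5% against 25.2%), 60 on 3R (24.6% against 24.5%), 43 on 3L (17.6% against 17.1%), 37 on 2L (15.2% against 17.0%), 31 on X (12.7% against 13.6%) and 6 on the small chromosome 4 (2.46% against 2.53%).

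The comparison set held 2493 internal exons in 522 genes that lay within the span of another isoform of the gene and that no isoform skipped. These exons could have been called skipped, since at least 1 other isoform ran across them. The rule placed no direct limit on the length of an exon or of its neighbouring introns beyond the need to fit into the skipping intron. A mutually exclusive exon, however, needs a neighbouring intron long enough to hold its partner exon, so intron length is not fully free of the rule.

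For 158 of the 244 exons (64.8%, 58.6 to 70.5) both ends of the skipping intron were splice sites that an including isoform also used. Of these, 139 were skipped alone, which is the textbook cassette, and 19 belonged to runs of exons skipped together. In 33 exons only the upstream end was shared, in 50 only the downstream end, and in 3 neither. For 73 exons (29.9%) a pair of isoforms had splice chains that differed at that exon alone. The 24 nt exon of up, the gene of troponin T, was such a case, carried by 4 isoforms and skipped by 4. Troponin T is known to differ between the muscles of a fly by its alternative exons. Another was the 39 nt exon of Fas1, a cell adhesion protein of axons, carried by 2 isoforms and skipped by 3.

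Skipped exons were more often a multiple of 3 in length than exons that were not skipped, and the forms of skipping differed in this. Over all skipped exons the length was a multiple of 3 in 134 of 244 (54.9%, 48.6 to 61.0), against 927 of 2493 comparison exons (37.2%, 35.3 to 39.1) and 36.6% of all 11777 internal exons. The difference from the comparison set was 17.7 percentage points (Newcombe interval 11.2 to 24.1). With both ends of the skipping intron shared the count was 106 of 158 (67.1%, 59.4 to 73.9). With 1 or neither end shared it was 28 of 86 (32.6%, 23.6 to 43.0), and with the upstream end alone 8 of 33 (24.2%, 12.8 to 41.0). Both of these intervals include the comparison share of 37.2%. These forms of skipping differed by 34.5 points (21.6 to 45.8). The skipped exons that were no multiple of 3 were split evenly, with a remainder of 1 in 57 and of 2 in 53. Stratified by gene, so that each skipped exon was set only against other internal exons of its own gene, the Mantel-Haenszel odds ratio was 2.32 (1.69 to 3.18) over the 166 genes that held both kinds. The difference was also present among exons in the second place of the isoform, at 15.0 points (2.85 to 27), and among later exons, at 18.9 points (11.2 to 26.4).

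The difference was found in exons made wholly of coding sequence. Of 165 such skipped exons, 109 were a multiple of 3 (66.1%, 58.5 to 72.8), against 778 of 2085 in the comparison set (37.3%), a difference of 28.7 points (20.9 to 35.8). Exons that held a start or stop codon, or were otherwise coding only in part, gave 14 of 56 (25.0%) against 120 of 328 (36.6%), a difference of -11.6 points whose interval (-22.5 to 2.07) included no difference. Exons with no coding base gave 11 of 23 (47.8%) against 26 of 73 (35.6%), and the interval of that difference (-9.62 to 33.9 points) was too wide to separate the groups. Among wholly coding exons with both ends of the skipping intron shared, 88 of 103 were a multiple of 3 (85.4%, 77.4 to 91.0). Where an exon was skipped alone, with no other change between the shared splice sites, the count for wholly coding exons was 73 of 85 (85.9%, 76.9 to 91.7), and for exons without a coding base 10 of 20 (50%, 29.9 to 70.1).

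**Figure D1:**
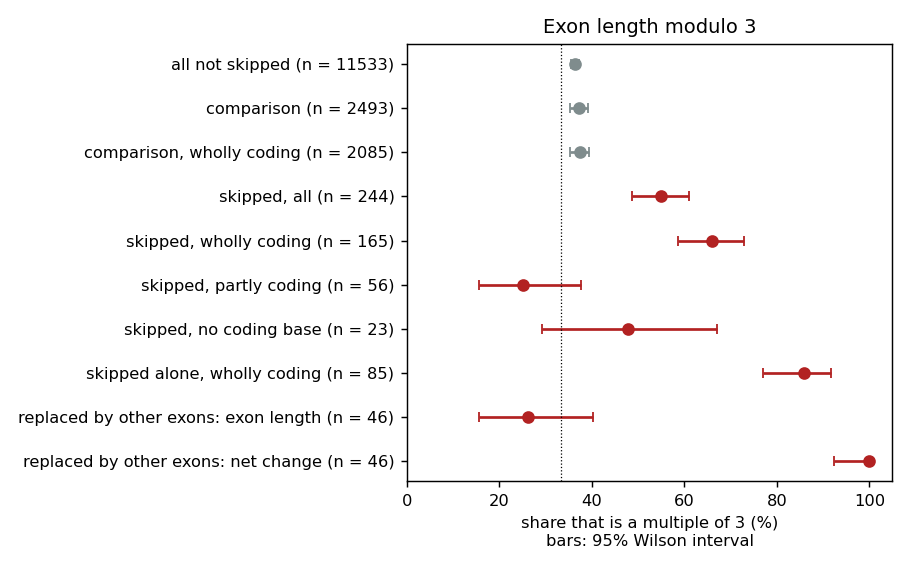
Share of exons with a length that is a multiple of 3, in percent, for groups of skipped exons (red) and exons that were not skipped (grey), with the number of exons in parentheses. Points are shares, bars are 95% Wilson intervals, and the dotted line marks 1 in 3. The grey groups sit between 36.3% and 37.3%, wholly coding exons skipped alone reach 85.9%, and exons replaced by others move from 26.1% for the exon itself to 100% for the net change. Exons that an isoform also left out without replacement over the same stretch are not in the replaced group.

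Some wholly coding exons that were skipped alone and were a multiple of 3 are given here as examples, chosen after their values were seen. Csp, a chaperone of synaptic vesicles, had a 63 nt exon carried by 2 isoforms and skipped by 2. CASK, a scaffold protein of synapses, had a 54 nt exon carried by 1 and skipped by 1, and dlg1, the scaffold Discs large, had a 177 nt exon with the same isoform counts. Argk1, an arginine kinase that buffers ATP, had a 561 nt exon between introns of 1996 and 11547 nt. The other 12 of the 85 were no multiple of 3, and they are named here after their lengths were seen. They were exons of 97 nt in arm, the fly beta-catenin, 136 nt in Syp, an RNA-binding protein, 235 nt in trpl, 110 nt in Ucp4A and anne, 46 nt in sowah and up, 38 nt in CG42268 and Ttd14, 32 nt in Pkc98E, and 28 and 1039 nt in Saf-B. For 4 of these 12 the reference annotation has no intron that skips the exon, against 2 of the 73 that were a multiple of 3. Of the partly coding exons, the 190 nt exon of Sxl (X, 7088578 to 7088767) was carried by 1 isoform and skipped by 2, between introns of 2906 and 918 nt. Sxl is the switch gene of sex determination, and its male mRNAs are known to carry an exon with stop codons that female mRNAs skip.

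Where other exons took the place of a skipped exon, the net change in length was also measured. For 204 exons, a stretch bounded by a donor and an acceptor common to an including and a skipping isoform could be found, and the net difference in exonic length over that stretch was a multiple of 3 for 152 (74.5%, 68.1 to 80.0). This measure was added after the exon lengths had been seen. In 139 cases the exon was skipped alone, in 19 it belonged to a run of exons skipped together, and in 46 other exons took its place. Of those 46 exons, 12 were themselves a multiple of 3 (26.1%, 15.6 to 40.3), while the net change was a multiple of 3 for all 46 (92.3 to 100). All 46 were wholly coding. An exon that an isoform replaced and another isoform left out over the same stretch was counted as skipped alone, not among the 46. The mutually exclusive pairs given below with length differences of 19, 305, 493 and 1111 nt were placed so. None of these differences is a multiple of 3, so the full share among the 46 partly reflects this sorting. Many swaps are counted from each side, since both exons of a swap can be among the 46. The intervals treat such linked exons as separate and are too narrow for that reason.

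Of the 46 replaced exons, 34 were mutually exclusive neighbours, so the counts on such pairs below are largely the same exons. A pair was called so when both exons lay between the same flanking exons and no isoform carried both. There were 29 such pairs, built from 42 exons of 18 genes, and in 25 pairs of 15 genes no isoform skipped both exons. In all 25 the lengths differed by a multiple of 3 or were equal (86.7 to 100%), although only 8 of their 34 exons were a multiple of 3 by themselves (23.5%, 12.4 to 40.0). Sets of 4 exons in Atpalpha and in Tep2 enter as every pair within the set. The 25 pairs are therefore not independent, and the interval does not allow for this. In the other 4 pairs an isoform skipped both exons, and none of the length differences was a multiple of 3. These were the exons of 100 and 81 nt in Atpalpha, 98 and 403 nt in nSyb, 552 and 59 nt in lqf, and 873 and 1984 nt in Usp2. The sets also differed in coding content. All exons of the 25 pairs were wholly coding. In the other 4 pairs the 100 nt exon had no coding base, and those of 98, 403, 59 and 1984 nt were coding only in part.

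Equal length was found in 12 of the 25 pairs. Atpalpha had 4 exons of 95 nt each, on 3R at 20966805 to 20966899, 20967108 to 20967202, 20968392 to 20968486 and 20970883 to 20970977, and they were carried by 1, 3, 1 and 2 of its 10 isoforms. No isoform carried more than 1 of the 4. Together they make up 6 of the 12 equal pairs. The others were exons of 164 nt in 14-3-3zeta, an adaptor that binds phosphorylated proteins, 109 nt in Pfk, the phosphofructokinase of glycolysis, 113 nt in Sam-S, which makes S-adenosylmethionine, 181 nt in Pgant5, which starts mucin-type glycosylation, 68 nt in GluClalpha, a glutamate-gated chloride channel, and 219 nt in Gs1l. Except in Gs1l none of these lengths is a multiple of 3. The 14-3-3zeta exons were balanced, with 3 isoforms for each, and a further isoform kept the upstream exon in a longer, unspliced form.

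The unequal pairs among the 25 in which no isoform skipped both exons differed by multiples of 3. The smallest steps were 3 nt, between exons of 150 and 153 nt in Ate1, an arginyltransferase, 148 and 145 nt in CG7766, and 129 and 126 nt in Cnx99A, the chaperone calnexin. Exons of 151 and 154 nt in Tep2, described below, also differed by 3 nt. The exons of whd, the carnitine palmitoyltransferase that brings fatty acids into mitochondria, were 60 and 66 nt long, and those of Eb1, a protein of microtubule tips, 277 and 259 nt. Ogdh, the 2-oxoglutarate dehydrogenase of the citric acid cycle, used 130 nt in 4 isoforms and 103 nt in 2. Tep2, a thioester protein of immunity, had 4 isoforms, each with a different exon of 214, 151, 181 or 154 nt, and these lengths all leave a remainder of 1. RIC-3, a chaperone of acetylcholine receptors, had the widest step among these pairs, 248 against 101 nt. Tm1, one of the tropomyosins that cover actin filaments, replaced a pair of exons by another pair of the same lengths, 118 and 71 nt, so that both isoforms had 189 nt over this stretch. Neither 118 nor 71 is a multiple of 3. Vha100-1, a subunit of the vesicle proton pump, traded exons of 158 or 92 nt for exons of 101 and 42 nt together, with net changes of 15 and 51 nt.

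**Figure D2:**
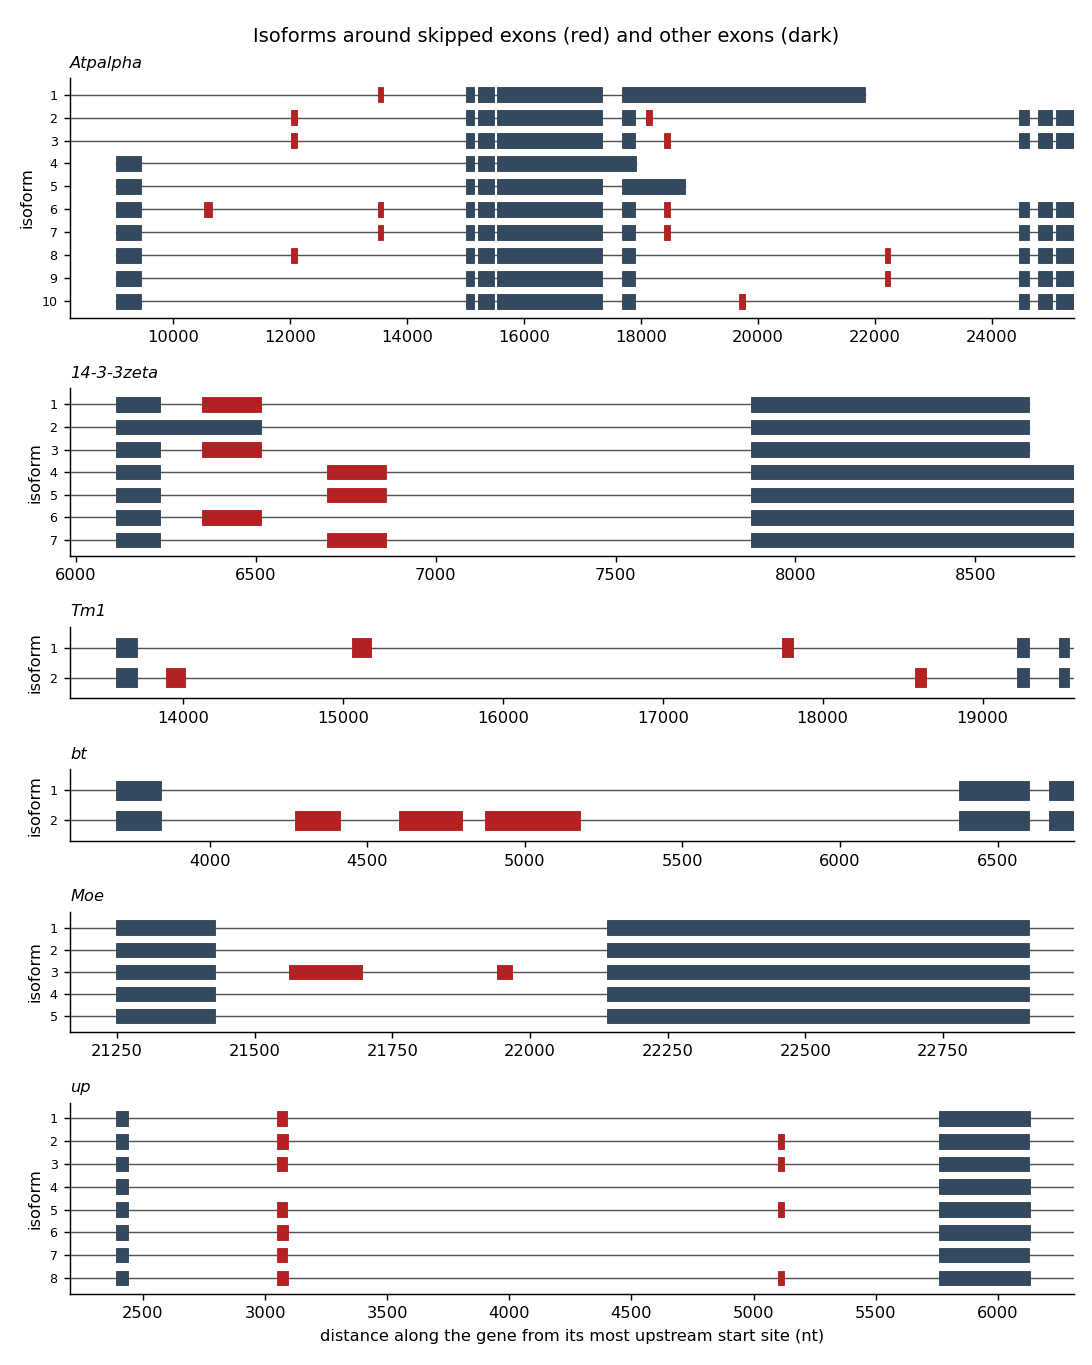
Isoforms of 6 genes around their skipped exons, drawn to scale as distance in nt along the gene from its most upstream start site, with 1 row per isoform; red boxes are skipped exons, dark boxes other exons, and lines introns. Atpalpha carries 1 of 4 red exons of 95 nt in 7 of its isoforms, Tm1 swaps a pair for a pair, bt and Moe skip a run of exons together, and up skips a 24 nt exon in 4 of 8 isoforms.

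Runs of exons skipped as a block were found 8 times, and in 6 the total length was a multiple of 3. In bt, which encodes the giant muscle protein projectin, 3 exons of 142, 201 and 302 nt (chromosome 4, 728673 to 729575) were left out together by an intron of 2531 nt. Only the middle exon is a multiple of 3, but the total of 645 nt is. In teq, a serine protease, 4 exons of 243, 465, 1380 and 465 nt, with introns of 56 to 64 nt between them, were left out together by an intron of 12226 nt, and the total was 2553 nt. The other runs with a total that is a multiple of 3 were 60 and 18 nt in shot, a spectraplakin that links actin to microtubules, 27 and 132 nt in Moe, the membrane linker moesin, 54 and 93 nt in kcc, a potassium chloride cotransporter, and 120 and 42 nt in CLIP-190, a microtubule-binding protein. In these 4 each exon was itself a multiple of 3. The runs of Zasp66, a Z-disc protein (72 and 160 nt), and CG43066 (69 and 514 nt) had totals of 232 and 583 nt, which are no multiples of 3.

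Skipped exons were shorter. Their median length was 120 nt (95% interval 109 to 145, quartiles 65.5 and 241, range 18 to 1984), against 200 nt (193 to 207, quartiles 133 and 377, range 18 to 3473) for comparison exons. Within the 166 genes that held both kinds, the median skipped exon was the shorter in 116 and the longer in 50 (30.1%, exact interval 23.3 to 37.7), with a median difference of -83.5 nt. The intervals were apart for wholly coding exons, at 103 nt (93 to 120) against 189 nt (183 to 196). They overlapped for partly coding exons, at 262 nt (190 to 400) against 392 nt (341 to 455), and for exons without coding bases, at 96 nt (60 to 144) against 132 nt (111 to 176). The upper ends of the distributions were alike, with 10 skipped exons (4.10%) and 119 comparison exons (4.77%) of 1000 nt or more.

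**Figure D3:**
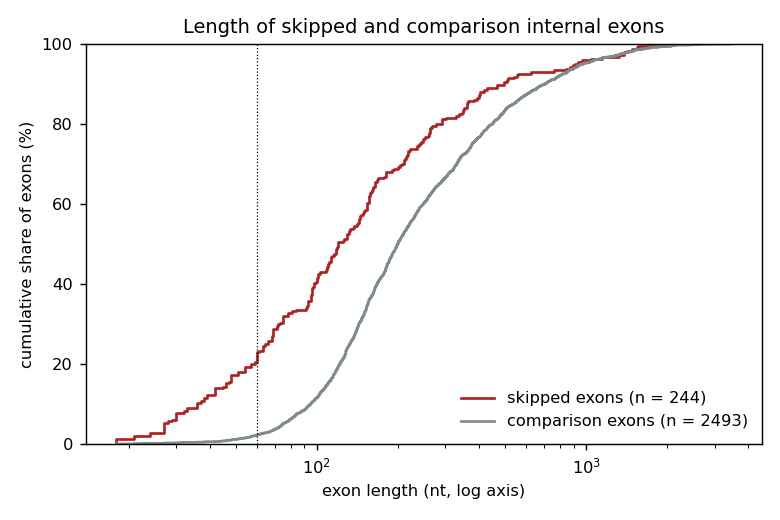
Cumulative share of exons, in percent, by exon length in nt on a log axis, for 244 skipped exons (red) and 2493 comparison exons (grey); the dotted line marks 60 nt. At 60 nt the red curve has reached 23.0% and the grey curve 2.33%, and the curves meet near 1000 nt.

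Exons of at most 60 nt made up 56 of the 244 skipped exons (23.0%, 18.1 to 28.6) and 58 of the 2493 comparison exons (2.33%, 1.80 to 3.00), a difference of 20.6 points (15.7 to 26.3). Of the short skipped exons 46 were a multiple of 3 (82.1%, 70.2 to 90.0), and of the short comparison exons 27 (46.6%, 34.3 to 59.2), a difference of 35.6 points (18.2 to 50.1). At 27 nt or less, the usual size of a microexon, there were 13 skipped exons (5.33%) and 7 comparison exons (0.281%). The shortest, at 18 nt or 6 codons, were in SERCA, the calcium pump of the sarcoplasmic reticulum, in shot, and in Snx6, a sorting nexin. The SERCA exon was carried by 4 isoforms and skipped by 2, between introns of only 75 and 85 nt, and its skipping intron of 178 nt was the shortest of all. Exons of 21 nt were found in CG42795 and side-VIII, of 24 nt in up and Pgant5, and of 27 nt in Fer2LCH, the light chain of secreted ferritin, CG10737, CG14207, Moe, Pkc53E and Msr-110. All 13 of these exons are multiples of 3. In up, an exon of 42 nt carried by 4 isoforms had a longer form of 46 nt in 3, which used another donor site and was the only skipped exon not listed as an exon of its gene in the annotation.

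At the long end, Usp2, a ubiquitin protease, had the 1984 nt exon, followed by exons of 1563 nt in FER, a tyrosine kinase, 1549 nt in par-1, a kinase of cell polarity, 1480 nt in B52, a splicing factor of the SR family, and 1416 nt in ITP, a peptide hormone of ion transport. Of these only the FER exon was wholly coding, and its length is a multiple of 3. The exon of B52 itself was carried by 1 isoform and skipped by 1.

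The introns beside skipped exons were long. Drosophila introns are known to fall into a large class of very short introns and a broad class of long ones. Where including isoforms differed, the smallest intron on each side was used. Of the skipped exons, 189 (77.5%) had only 1 including isoform, and the effect of this choice was not tested. The shorter of the flanking introns had a median of 345 nt (279 to 505) for skipped exons and 66 nt (65 to 67) for comparison exons, and the longer one 1459 nt (1194 to 1705) and 362 nt (329 to 403). Upstream introns had medians of 655 and 135 nt, and downstream introns 761 and 78 nt. For skipped exons with both ends of the skipping intron shared, the shorter neighbour had a median of 324 nt and the longer one 1078 nt. Both neighbours were under 100 nt for 8 skipped exons (3.28%) and for 728 comparison exons (29.2%). Both were 200 nt or more for 166 skipped exons (68.0%) and 489 comparison exons (19.6%), a difference of 48.4 points (42.1 to 54.2). A neighbour of 10000 nt or more was found for 23 skipped exons (9.43%) and 109 comparison exons (4.37%), a difference of 5.05 points (1.87 to 9.44).

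The contrast was also found within genes. In 148 of the 166 genes with both kinds of exon the median of the shorter flanking intron was larger for the skipped exons, in 12 it was smaller and in 6 equal (92.5% of those that differed, exact interval 87.3 to 96.1), with a median difference of 219 nt. For the longer flanking intron the counts were 131 larger, 31 smaller and 4 equal (80.9%, 74.0 to 86.6), and the median difference was 676 nt. Early introns of fly genes are known to be long, and exons in the second place were also set apart. There the shorter neighbour had a median of 665 nt (278 to 1044) against 92.5 nt (80 to 114) and the longer one 3305 nt (2395 to 4194) against 1217 nt (1027 to 1427). Among later exons the values were 321 nt (257 to 405) against 64 nt and 1089 nt (917 to 1304) against 239 nt (210 to 271). The first skipped exon and the first comparison exon of each gene were also taken separately, without matching their places. The longer neighbour was then 1509 nt for skipped exons and 1285 nt for comparison exons. In that setting this difference nearly closed, unlike in the values by place above, and the shorter neighbour remained apart at 341 against 101 nt.

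**Figure D4:**
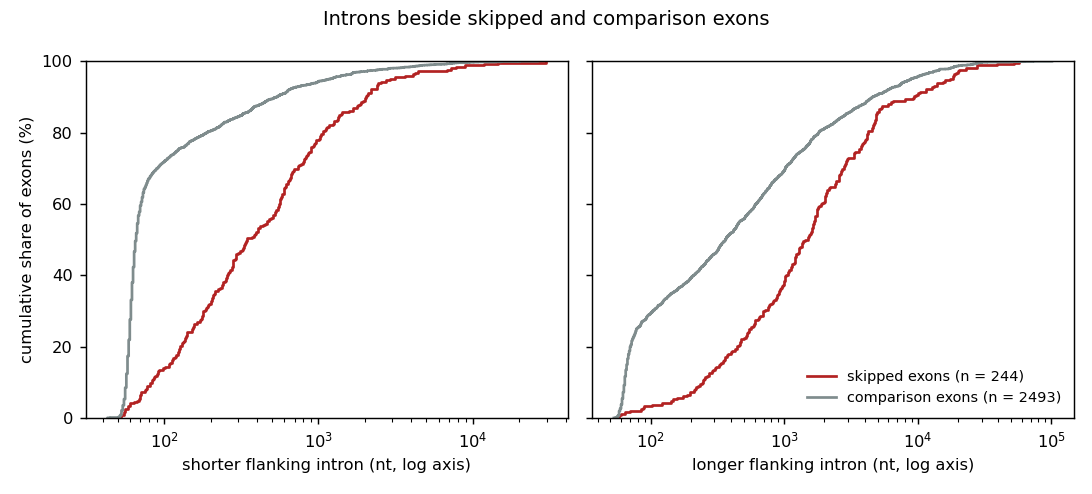
Cumulative share of exons, in percent, by the length in nt of the shorter (left) and the longer (right) flanking intron on log axes, for skipped (red) and comparison (grey) exons. The medians are 345 and 66 nt on the left and 1459 and 362 nt on the right.

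The longest intron that held each skipped exon had a median over the 244 exons of 2369 nt (1917 to 2805), from 178 to 69819 nt. The longest was in bru1, an RNA-binding regulator of translation and splicing, where a 913 nt exon (2L, 12240868 to 12241780) lay between introns of 39096 and 29810 nt. Mnr followed with an exon of 68 nt and a skipping intron of 69246 nt, then EcR, the ecdysone receptor, with 56758 nt, rdx, an adaptor of a ubiquitin ligase, with 55775 nt, and CG31145, with a 30 nt exon and 32897 nt. At the other extreme, the 8 exons with both neighbours under 100 nt were 3 of the exons of teq, the 18 nt exon of SERCA, and exons of 138 nt in Lpin, 110 nt in anne, 541 nt in Tsp97E and 99 nt in CG33695.

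Skipped exons lay early in the mRNA and were less often wholly coding. Their median place was 34.1% of the way along the isoform (30.9 to 39.1), against 40.9% (39.3 to 42.0). The second exon of the isoform was the skipped one in 69 cases (28.3% against 24.1%, a difference of 4.13 points with an interval of -1.42 to 10.3 that included none), and the next to last exon in 44 (18% against 25.4%). By the annotated reading frames 165 were wholly coding (67.6% against 83.9%), 56 partly coding (23.0% against 13.2%) and 23 held no coding base (9.43% against 2.94%). The difference in wholly coding exons was -16.2 points (-22.5 to -10.5). It was -27.4 points (-36.5 to -15.7) among exons in the second place and -9.20 points (-15.2 to -4.65) among later exons. When the first skipped exon and the first comparison exon of each gene were taken separately, the sign turned, to 12.9 points (4.23 to 21.1). The wholly coding share was then 61.5% for skipped and 48.7% for comparison exons. These exons were not matched by place, and within the second place and among later exons the difference stayed negative. The difference thus varied with which exons of a gene were counted.

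Exons without a coding base are made of untranslated sequence. Among these was a 351 nt exon of Syt1, the calcium sensor of synaptic vesicle fusion, carried by 6 isoforms and skipped by 1, a 350 nt exon of Hk, a subunit of potassium channels, carried by 1 and skipped by 2, a 96 nt exon of Hrb27C, an RNA-binding protein, carried by 2 and skipped by 1, and a 64 nt exon of Slob, a binding partner of a potassium channel, carried by 1 and skipped by 2. Atpalpha had 2 such exons, of 144 and 100 nt, and the 81 nt exon beside them was wholly coding. In Atpalpha these early exons were carried by 1, 3 and 3 of the 10 isoforms.

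For nearly all of these exons the reference annotation also had an intron that holds the exon. Of the 244 exons 243 were listed as exons of their gene, and for 230 (94.3%, 90.6 to 96.6) an annotated intron of the gene held the exon. The same was true of 72 of 2486 comparison exons (2.90%) and of 5.10% of all internal exons of annotated genes. The short reads that corrected the splice sites were mapped with the help of an annotation, so this overlap may not be fully independent of it. An annotated intron that holds the exon need not be the one seen here. When the 63 isoforms with an unannotated junction were left out, 213 of the 244 exons were kept. The 14 exons that no annotated intron holds were a multiple of 3 in 4 cases (28.6%, 11.7 to 54.6), against 130 of 230 (56.5%, 50.1 to 62.8) for the others. They included both exons of trpl, of 146 nt in 5 isoforms and 235 nt in 3, each skipped by 1. A 75 nt exon of AGO1, the microRNA effector Argonaute, was carried by 2 isoforms and skipped by 1. The SERCA exon, a 91 nt exon of Hrb98DE, a 29 nt exon of RpL5 and a 38 nt exon of Ttd14 were also among them.

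The study asks how start sites relate to 3′ ends, so the ends of including and skipping isoforms were compared. A transcription start site (TSS) was counted as shared within 50 nt and a polyadenylation site (PAS) within 150 nt. For 194 of the 244 exons (79.5%, 74.0 to 84.1) an including and a skipping isoform shared a TSS, for 174 (71.3%, 65.3 to 76.6) a PAS, and for 136 (55.7%, 49.5 to 61.8) a single pair of isoforms shared both. For 18 exons neither was shared. A gene with only 1 TSS can give no other answer, and of the 100 exons in genes with several TSSs, 50 (50%, 40.4 to 59.6) had no TSS in common between the isoforms that included and skipped them. Of the 136 exons in genes with several PASs, 70 (51.5%, 43.1 to 59.7) had no PAS in common. Both of these shares are also partly fixed in advance. In a gene with only 2 multi-exon isoforms and several TSSs or PASs, the including and the skipping isoform must differ in that end. The share with a common PAS rests on where isoforms end, and it was 85.5% when isoforms that ended more than 150 nt from any annotated 3′ end were left out.

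Sharing differed with the form of skipping, but part of this is set by how the forms are defined. An including isoform that starts inside the skipping intron cannot share the intron's upstream end. Likewise, an isoform that ends inside it cannot share the downstream end. Of exons with both ends of the skipping intron shared, 146 of 158 (92.4%) had a common TSS and 125 (79.1%) a common PAS. With only the upstream end shared, 30 of 33 had a common TSS (90.9%) and 17 a common PAS (51.5%). With only the downstream end shared, 18 of 50 had a common TSS (36.0%, 24.1 to 49.9) and 32 a common PAS (64.0%). Of the 3 exons with neither end shared, 2 were in Tm1 and 1 in Lmpt, and none had a common TSS or PAS. Exons without a common TSS lay beside longer introns, with a median of 2495 nt (1300 to 3636) for the longer neighbour against 1287 nt (1029 to 1619) for the others, and these intervals overlapped.

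**Figure D5:**
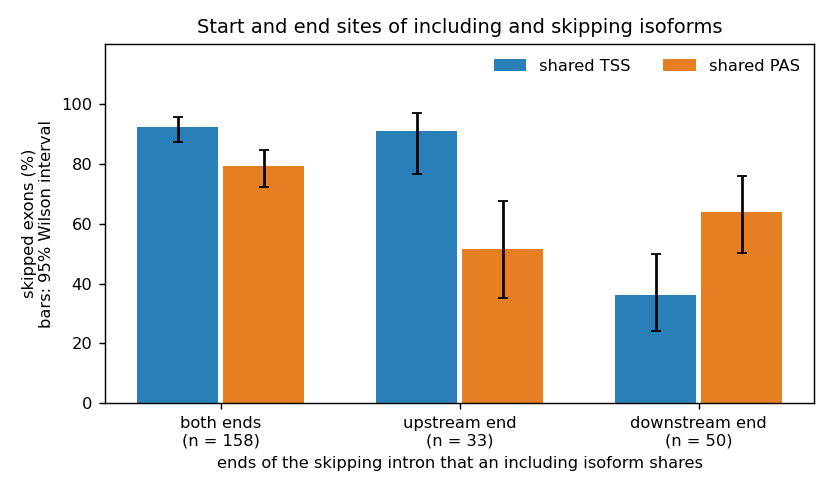
Share of skipped exons, in percent, for which an including and a skipping isoform had a common TSS (blue) or PAS (orange), by which ends of the skipping intron an including isoform also used; bars start at 0, error bars are 95% Wilson intervals, and the number of exons is under each group. A common TSS falls to 36.0% where only the downstream end is shared, and a common PAS is lowest, at 51.5%, where only the upstream end is shared. The groups are partly set by where isoforms start and end.

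The genes behind the exons without a common TSS were led by Tm1, with all 4 of its exons, and by kcc, RIC-3 and Lmpt, with 3 each. EcR, ITP, Jupiter, a microtubule-associated protein, Mbs, the regulatory subunit of myosin phosphatase, par-1, Rtnl1 and shot had 2 each. Tm1, kcc, RIC-3, ITP, Jupiter and Mbs had only 2 multi-exon isoforms each, with different TSSs, so none could be in common. In Mbs, exons of 291 and 419 nt were both left out by an intron of 5810 nt that shared only its downstream end with the including isoform. Conversely, mod(mdg4) and lola, which encode families of chromatin and transcription factors and are known for many alternative 3′ exons behind a common 5′ part, shared the TSS for all of their exons and the PAS for none. Their skipping introns reached 21325 and 29576 nt. In mod(mdg4) the skipped exons were 116 and 494 nt long, and in lola 217 and 154 nt.

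Gene lists for muscle, synapses, ion channels, RNA-binding proteins and the cytoskeleton gave the following counts. They are of genes with a skipped exon among genes with several multi-exon isoforms, where the share over all such genes was 28.4%. The lists are small and were chosen with earlier results of these data known. They were not matched to other genes by number of isoforms. The counts describe these genes only and are no test against the share over all genes. Of muscle genes, 4 of 5 had one: Tm1, bt, up and Zasp66, with 13 exons in all. Of synaptic genes, 5 of 9 had one, namely Vha100-1, nSyb, RIC-3, Csp and Syt1, with 12 exons, among them 3 of 98, 403 and 73 nt in nSyb, the neuronal synaptobrevin that drives vesicle fusion. Of ion channel genes and their partners, 4 of 7 had one: GluClalpha, trpl, Hk and Slob, with 6 exons. Of genes of RNA-binding proteins, 7 of 13 had one, with 1 exon each in B52, bru1, Hrb27C, Hrb98DE, mub, sm and Syp. The 48 nt exon of sm was carried by 3 isoforms and skipped by 2 between introns of 18381 and 7800 nt, and the 141 nt exon of mub was carried by 1 and skipped by 3. Of cytoskeletal genes, 6 of 10 had one, with 13 exons: shot with 4, CLIP-190 with 3, Mbs and Moe with 2, and Gel and stai with 1.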

How the data were processed

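RNA of w1118 heads (0.5 µg per library, 14 PCR cycles, selected above 3 kb, 3 SMRT cells) was sequenced as 3 Iso-seq libraries. Per the study's methods, the authors merged the replicates, aligned consensus reads to dm6 with STARlong and built isoforms with FLAIR 1.1, with splice sites corrected by short reads, experimentally mapped promoters for 5′ ends, at least 2 full-length reads per isoform and at most 5 ends per splice chain. The size selection and the read minimum limit which isoforms, and so which skipped exons, can be seen. The deposited values are coordinates of exons in other units than expression, with no normalization and no abundance. A further number per isoform was not used. A filter on 3′ ends is described, and no source used here states whether these isoforms passed it.

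Of 5272 isoforms, 4700 had several exons and a gene identifier; 303 at loci without one were left out. Internal exons of the same coordinates were counted once. Coding content, exons and introns were taken from Ensembl release 115 of BDGP6.54, the assembly of dm6, which matched 4035 of 4059 gene identifiers. Exon place was the smallest over isoforms. Shares have 95% Wilson intervals, differences of shares Newcombe intervals, medians exact order-statistic intervals and counts of genes exact binomial intervals (Python 3.11.15, scipy 1.17.1, statsmodels 0.14.6). No p-values were computed, since the pooled isoforms hold no replicates. Counting was tested on simulated isoforms. Splice site sequences were not analysed here. Genes named are those with the most, shortest and longest skipped exons, the longest skipping introns, no common TSS, or membership of 5 lists, of which 127 of 132 symbols matched; further genes illustrate a group and were chosen after their values were seen. Members and lists were chosen with earlier results of these data known. Alternatives changed the definition of skipping, the exons and isoforms counted, the comparison set and the windows for ends.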

Additional observations from a re-analysis of the deposited data

How the results depend on the processing

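Over 11 alternatives, 96 of 121 values stayed within the interval of the reported value (counts within 1.5 times), 24 moved and 1 changed sign. The change of sign was the difference in wholly coding exons, 12.9 points with 1 exon of each kind per gene. That setting took the first skipped and the first comparison exon separately, and these were not matched by place. With both ends of the skipping intron shared, 158 exons remained, the share of multiples of 3 was 67.1%, its difference from comparison exons 29.9 points, the odds ratio 3.44, the net share 67.1%, the median longer intron 1078 nt, and the shares with a common TSS, a common PAS and both were 92.4%, 79.1% and 70.3%. With wholly coding exons alone the share was 66.1%, the difference 28.7 points, the odds ratio 3.27 and the net share 89.9%. Without the 1182 of 4700 isoforms that ended over 150 nt from an annotated 3′ end, 173 skipped exons were kept, and 85.5% had a common PAS and 65.3% a common TSS and PAS. Without the 63 isoforms with an unannotated junction, 213 were kept. The causes of these shifts were not tested. No paired analysis was possible because the libraries form 1 group and were pooled, and for the same reason no library could be left out. Depth limits the results, since an exon skipped only in rare mRNAs is counted as not skipped.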
